A study of Mus musculus with 78 samples.

Results

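The hypothalamus of mice kept under circadian rhythm disruption (CRD) was set against that of control mice (CON) at 8 weeks, using 10 of the 78 libraries of a bulk RNA sequencing study. The members were the 5 CRD and 5 CON hypothalamus libraries that carry the 8-week mark in their titles. All mice were C57BL/6. The CRD schedule ran in 3 stages: an inversion of day and night every 3 days over 4 weeks, alternating blocks of 48 h light and 48 h darkness over 3 weeks, and unbroken light in the last 1 week. CON mice stayed on 12 h of light and 12 h of dark, and food and water were free. Further groups compared were the 18-month hypothalamus (5 CRD and 4 CON libraries) and the 8-week hippocampus (5 CRD and 5 CON libraries) of the same strain under the same schedules. Whether 8 weeks is the age at the start or at collection, the hour of collection, the sex and the animal behind each library are unknown here. The p-values therefore measure the spread between these libraries, which may be technical in part.

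The hypothalamus holds the suprachiasmatic nucleus, the central clock that light entering the eye sets to the day. In that clock, CLOCK and BMAL1 (gene Arntl) switch on the Per and Cry genes and the Rev-erb genes (Nr1d1 and Nr1d2), whose proteins then switch the loop off again. Around it lie peptide neurons for water balance, feeding, arousal and pituitary control. Microglia and other cells of the brain also keep a low level of interferon-induced transcripts, made when type I interferon binds its receptor.

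The values were fragments per kilobase of transcript scaled to library size (FPKM). Their sums differed between the 10 libraries, from 430706 in CON replicate 2 to 465108 in CON replicate 5, so comparisons between libraries are approximate. A difference is given as CRD minus CON on the log2(FPKM + 1) scale, which understates changes of genes with low FPKM. Across the 10 libraries 14463 of 20673 genes averaged at least 0.5 FPKM and were tested. Between 17465 and 17753 genes were above 0 in each library. A relative depth read from the steps between low values was 0.889 to 1.00. It used only values near the usual step of each gene, so it could not show large differences in depth. Absolute depth is unknown, since no counts were used. All 20 genes of a hypothalamic identity list were tested, among them Nkx2-1, Sim1, Otp and Fezf1, and their summed level was 131 to 179 FPKM in CRD and 143 to 184 FPKM in CON. Transcripts of neighbouring tissue were uneven across libraries. Pituitary hormone transcripts were high in CRD replicate 1, the thalamic gene Prkcd ran between 6.13 and 53.93 FPKM, and CON replicate 5 lay farthest out on the first principal component, at 27.7, where the other libraries lay between -14.2 and 8.58.

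No gene was called between CRD and CON hypothalamus at 8 weeks. At a Benjamini-Hochberg adjusted p under 0.05 limma called 0 of 14463 genes (0%), and the smallest adjusted p was 0.121. At an unadjusted p under 0.05 there were 156 genes, 96 of them lower in CRD (0.664% of genes tested) and 60 higher (0.415%). These are fewer than the 1 in 20 genes that this threshold passes by chance, and the reason was not tested. With 1 library left out that count ran from 121 to 307, with 258 without CON replicate 1 and 307 without CON replicate 2. Only 9 genes differed by more than 1 log2 unit. Ifi27l2a, Lgals3bp and Ifi27 were lower in CRD at -1.43, -1.08 and -1.02, and Prl, Gh, Cga, Pomc, Gm14434 and Zfp966 were higher by 1.05 to 1.99. The median difference over all genes was 0.01 and the median standard error 0.0909. Of the genes tested, 41.4% were lower in CRD.

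Genes induced by interferon led the ranking by p, with lower levels in CRD. Of the 20 genes named for the smallest p, predicted genes left out, 19 were lower in CRD and 9 belonged to a list of interferon response genes. With predicted and low genes kept in the ranking, 18 of the first 20 and 26 of the first 30 were lower, and the predicted gene Gm42078 was higher in every CRD library than in any CON library, by 0.48. Lgals3bp, a secreted galectin-binding glycoprotein on chromosome 11 (118392747 to 118401959, GRCm38.p6), had 19.56, 13.55, 13.44, 14.67 and 14.27 FPKM in the CRD libraries, against 22.63, 34.68, 42.92, 28.99 and 38.14 FPKM in the CON libraries. Every CRD library lay below every CON library. The difference was -1.08 with a standard error of 0.15 (limma, adjusted p = 0.121, n = 5 each).

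Ifi27, an interferon-induced membrane protein gene, had 34.85, 29.79, 32.38, 26.37 and 27.48 FPKM in CRD, against 44.99, 68.83, 89.35, 49.35 and 66.42 FPKM in CON, again without overlap. Its difference was -1.02 (standard error 0.16, limma adjusted p = 0.142). Its relative Ifi27l2a had 6.52, 7.49, 6.45, 3.17 and 2.08 FPKM in CRD, against 14.31, 14.14, 23.39, 10.07 and 12.76 FPKM in CON. The groups did not overlap here either, and the difference was -1.43 (standard error 0.27, limma adjusted p = 0.80). Both genes lie on chromosome 12, where the RefSeq interval of Ifi27 (103434189 to 103440245) falls within that of Ifi27l2a (103433873 to 103443680), so reads of the one may have been counted for the other. Without CON replicate 1 Lgals3bp and Ifi27 passed the threshold (limma adjusted p = 0.00647 and 0.0229), and no other leave-one-out fit called a gene.

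The interferon response list held 20 genes, of which 18 were tested, Oas2 lay under the expression filter and Mx1 was not analysed here. All 18 were lower in CRD, 13 of them at an unadjusted p under 0.05, where 0.664% of all genes were. None was called. The list's median difference was -0.67, against 0.01 over all genes. Because the list was chosen with earlier results of these data known, these values are a description and not independent support. Without CRD replicate 1 and CON replicate 5, 17 of 19 tested members were lower at an unadjusted p under 0.05 and the median was -0.70. Summed over the 19 genes with values, the list came to 148, 117, 117, 90.9 and 95.5 FPKM in the CRD libraries, against 163, 202, 291, 155 and 192 FPKM in the CON libraries. These sums did not overlap between the groups, with CRD replicate 1 and CON replicate 4 the nearest to each other.

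A sensor and transcription factors of the pathway were lower in CRD too. Ddx58, which is not on the list, encodes RIG-I, a cytosolic sensor of viral RNA, and averaged 1.69 ± 0.206 FPKM in CRD and 2.76 ± 0.464 FPKM in CON (SD, n = 5 each). Irf9, a transcription factor of the interferon response, had 9.63, 7.93, 9.08, 7.02 and 7.53 FPKM in CRD, against 10.73, 13.42, 17.01, 10.75 and 11.13 FPKM in CON. Both genes were without overlap between the groups. Irf7, the factor that amplifies type I interferon production, averaged 2.14 ± 0.862 FPKM in CRD and 4.14 ± 1.49 FPKM in CON, a difference of -0.71.

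Differences of the antiviral effector genes were negative and ranged widely. Ifit3, which binds foreign RNA together with its relatives, had 13.20, 16.11, 11.99, 14.25 and 11.79 FPKM in CRD, against 16.52, 27.17, 43.89, 21.28 and 26.50 FPKM in CON. Bst2, encoding the virus tether tetherin, had 11.34, 6.15, 7.44, 4.25 and 4.14 FPKM in CRD, against 10.52, 13.65, 19.79, 10.82 and 13.63 FPKM in CON. Ifit3 did not overlap between the groups, while for Bst2 CRD replicate 1 lay above the 2 lowest CON libraries. Differences were -0.90 for Oasl2, -0.81 for the receptor chaperone gene Rtp4, -0.74 for the guanylate-binding protein gene Gbp3, -0.73 for the oligoadenylate synthetase gene Oas1a and -0.40 for Trim34a. Gbp3 and Trim34a are not on the list. Its smallest difference was that of Ifit2, at -0.05. Isg15, a ubiquitin-like modifier, averaged 3.83 ± 1.40 FPKM in CRD and 5.55 ± 1.71 FPKM in CON, a difference of -0.45 with a 95% interval of -0.91 to 0.00.

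**Figure D1:**
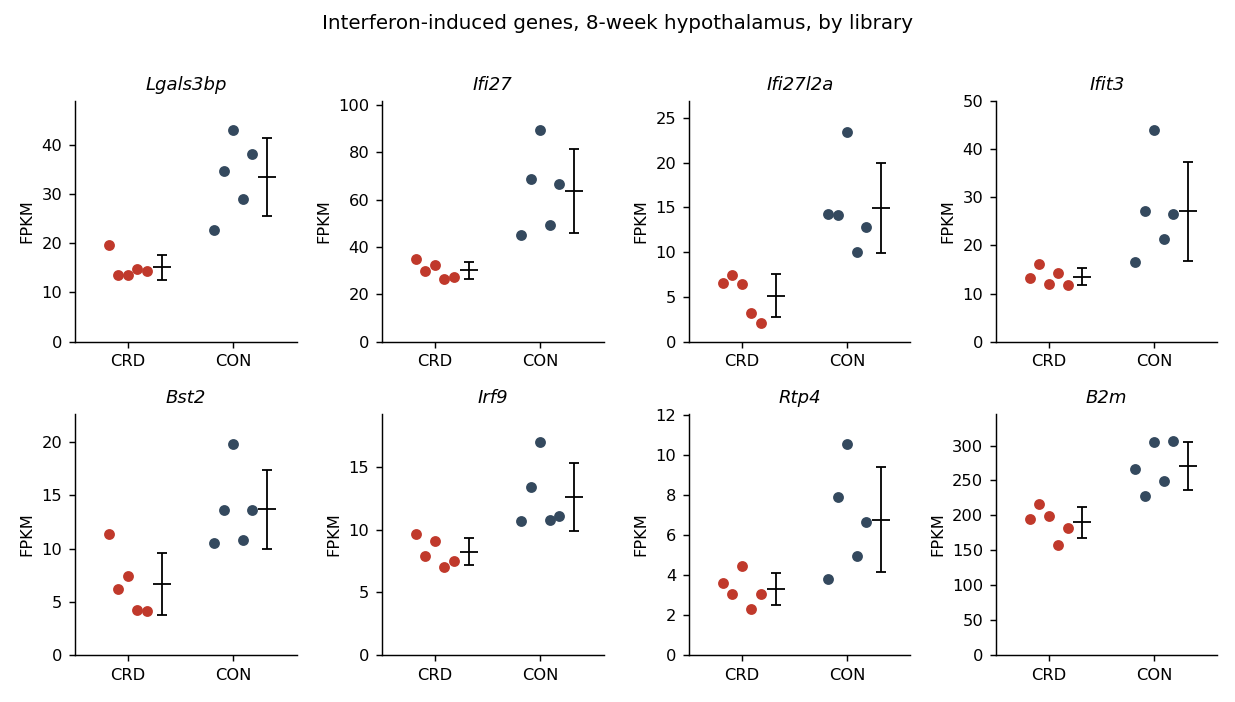
FPKM (vertical axis, from 0) of 8 interferon-induced genes in each CRD and CON library of the 8-week hypothalamus, with the mean and SD of 5 libraries beside the points. Lgals3bp, Ifi27, Ifi27l2a, Ifit3, Irf9 and B2m do not overlap between the groups, Bst2 and Rtp4 do, and CON replicate 3 is the highest CON library in all of them but B2m.

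Genes of antigen presentation by MHC class I, which interferon also induces, were lower to a smaller extent. All 12 tested members of that list were lower in CRD, with a median of -0.21. At an unadjusted p under 0.05 there were 2 of them, against 0.664% of all genes. B2m, the light chain shared by class I molecules, had 195.37, 216.00, 199.12, 157.82 and 181.70 FPKM in CRD, against 266.34, 227.27, 304.69, 248.85 and 306.53 FPKM in CON. The groups did not overlap, at a difference of -0.51 (standard error 0.10, limma adjusted p = 0.80). The class I heavy chain gene H2-D1 differed by -0.36, and the peptide transporter gene Tap2 by -0.01. MHC class II genes, carried by few brain cells, had a positive median of 0.33 over 7 tested genes, none of them at an unadjusted p under 0.05.

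Complement genes of microglia stood with this group in the ranking. C1qa, C1qb and C1qc encode the chains of the molecule that starts the classical complement pathway and lie side by side on chromosome 4. C1qa had 58.90, 67.20, 56.41, 57.38 and 58.06 FPKM in CRD, against 78.93, 63.85, 83.88, 73.55 and 91.62 FPKM in CON. CRD replicate 2 was the highest CRD library for all 3 chains and CON replicate 2 the lowest CON library, and there the groups overlapped. The differences were -0.38, -0.38 and -0.32. Ctss, a lysosomal protease of microglia, averaged 60.2 ± 9.42 FPKM in CRD and 83.8 ± 16.5 FPKM in CON, a difference of -0.46. Over the microglia list these 3 C1q genes were the members at an unadjusted p under 0.05 among 16 tested, against 0.664% of all genes. In CRD 12 of the 16 were lower, and the median was -0.15. The other 4, Cx3cr1, P2ry12, Gpr34 and Fcrls, which also mark microglia, differed by 0.00, 0.11, 0.04 and 0.02. The summed level of the microglia list was 357 to 445 FPKM in CRD and 375 to 525 FPKM in CON, and its part in the C1q differences was not tested. In bulk tissue fewer cells of a type and less RNA per cell cannot be told apart.

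Lymphocyte transcripts were near the floor in both groups. Of 14 measured T, NK and B cell markers, Ccl5 and Cd8a passed the expression filter, and the whole list summed to 2.71 to 4.93 FPKM in CRD and 2.53 to 5.61 FPKM in CON. Cd3e reached at most 0.13 FPKM in CRD and 0.25 FPKM in CON.

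Promoters of the leading genes, many of them interferon-induced, are shown because many share the letters of an interferon response element. The letters searched were GAAANNGAAA on either strand, the core of the interferon-stimulated response element, in windows from 250 bases before to 50 bases after the start (RefSeq, GRCm38.p6). Of the 20 genes named for the smallest p, 16 had a promoter in the table and 9 of these held the letters: B2m, Bst2, Ctss, Ddx58, Gbp3, Ifit3, Lgals9, Oas1a and Trim34a. By sequence, 9 of their 18 promoters held them, against 439 of 14776 promoters of all genes tested (2.97%) and 3.44% of all 32851 promoters in the table. In the following sequences, 5′ to 3′ on the gene's strand, capitals mark the matches. The promoters are those of Ifit3 (chr19:34583279-34583578, plus strand), Bst2 (chr8:71537423-71537722, minus strand) and, with no match in the window, Lgals3bp (chr11:118401910-118402209, minus strand).
Ifit3: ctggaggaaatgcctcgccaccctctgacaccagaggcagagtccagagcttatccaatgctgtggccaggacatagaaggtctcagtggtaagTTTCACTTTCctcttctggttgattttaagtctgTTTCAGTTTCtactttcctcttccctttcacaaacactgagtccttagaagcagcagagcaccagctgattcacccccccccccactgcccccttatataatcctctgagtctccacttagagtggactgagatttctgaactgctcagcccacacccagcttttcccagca
Bst2: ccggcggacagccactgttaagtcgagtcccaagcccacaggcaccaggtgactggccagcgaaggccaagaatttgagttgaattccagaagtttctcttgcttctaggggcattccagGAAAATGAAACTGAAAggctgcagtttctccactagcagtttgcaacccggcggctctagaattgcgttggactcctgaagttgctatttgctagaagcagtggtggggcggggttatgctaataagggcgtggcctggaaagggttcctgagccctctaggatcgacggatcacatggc
Lgals3bp: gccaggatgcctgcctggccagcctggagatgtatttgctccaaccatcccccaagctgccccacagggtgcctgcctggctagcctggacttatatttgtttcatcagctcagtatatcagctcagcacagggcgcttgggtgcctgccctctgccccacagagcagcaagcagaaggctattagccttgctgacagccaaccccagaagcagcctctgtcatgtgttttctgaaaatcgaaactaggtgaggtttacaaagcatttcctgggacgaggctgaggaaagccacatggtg
In Ifit3 the matches start 156 and 122 bases before the start, and in Bst2 they start 130 and 124 bases before it and overlap. A match is a description of the letters, not of binding or of an effect of CRD.

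**Figure D2:**
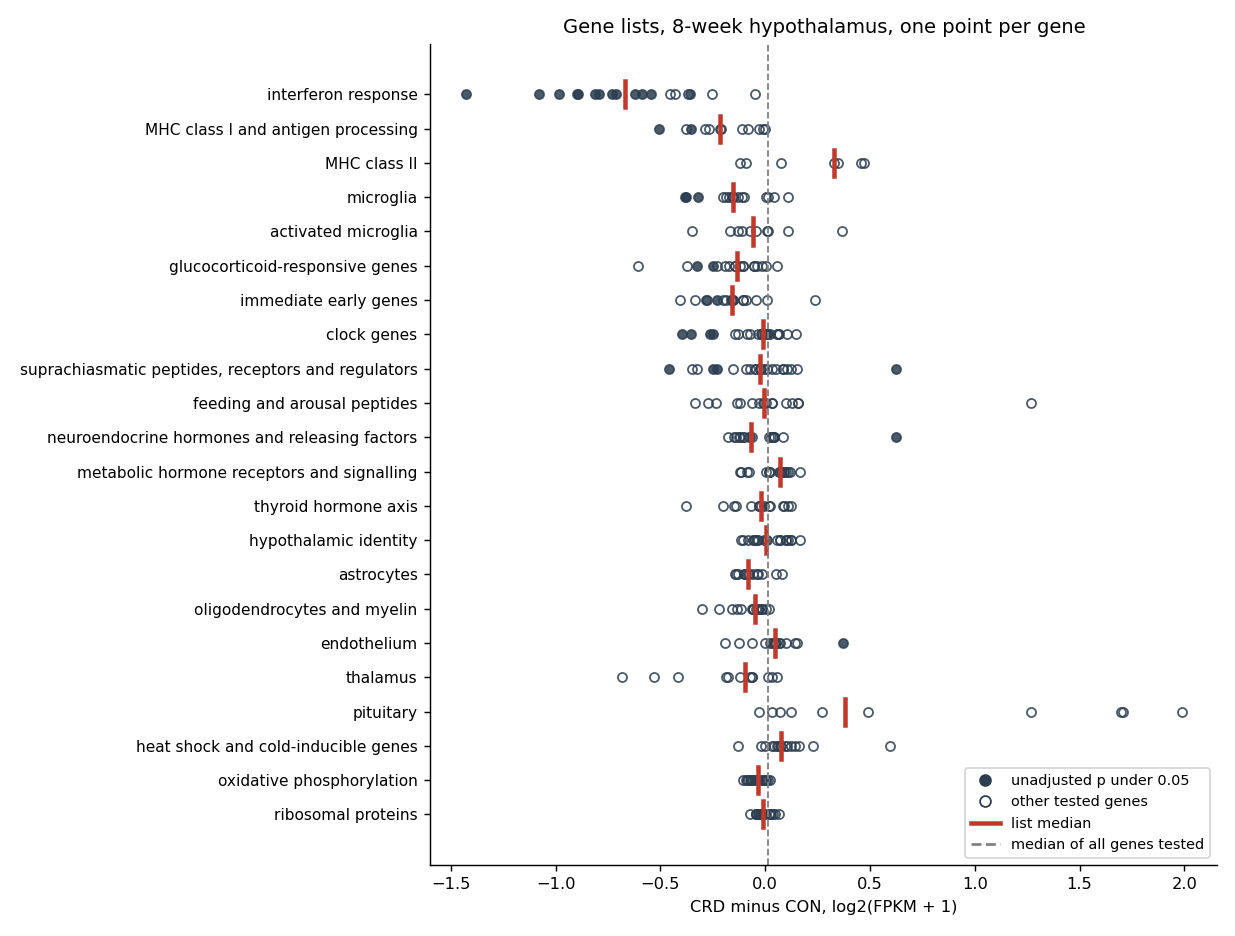
Difference between CRD and CON (log2(FPKM + 1), horizontal axis) of each tested gene of 22 gene lists, filled where the unadjusted limma p was under 0.05, with list medians in red and the median of all genes dashed. All 18 interferon genes lie left of 0 with a median of -0.67, while the medians of the clock and hypothalamic identity lists lie at -0.01 and 0.00.

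Most clock genes differed little between the groups, and Nr1d1, Dbp, Per1 and Ciart stood lowest. Summed over the list, clock transcripts came to 455 to 522 FPKM in CRD and 531 to 550 FPKM in CON, without overlap. The mean log2(FPKM + 1) of the list per library overlapped, at 3.86 to 4.03 in CRD and 3.95 to 4.04 in CON. Of 24 clock genes tested, 4 were lower in CRD at an unadjusted p under 0.05 and none was higher, where 0.664% and 0.415% of all genes were, and the list's median was -0.01. None was called. Nr1d1, the repressor REV-ERBα on chromosome 11 (98767932 to 98775377), had 47.31, 50.94, 53.65, 42.52 and 30.18 FPKM in CRD, against 58.32, 53.95, 58.03, 58.76 and 62.85 FPKM in CON. Every CRD library lay below every CON library, though CRD replicate 3 and CON replicate 2 were close. The difference was -0.40 with a standard error of 0.12 (limma, adjusted p = 1.00). Across all genes 14 had every CRD library below every CON library (0.0968%). Beside Nr1d1 they included 4 of the 18 interferon genes (Lgals3bp, Ifi27l2a, Ifit3 and Irf9) and the immediate early gene Arc, and 10 further genes had every CRD library above.

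Dbp, a transcription factor driven directly by CLOCK and BMAL1, had 60.64, 63.78, 71.06, 90.54 and 45.24 FPKM in CRD, against 84.85, 68.64, 90.91, 84.68 and 86.99 FPKM in CON. The groups overlapped, with CRD replicate 4 close to the highest CON library. Ciart, a repressor of CLOCK and BMAL1, had 9.17, 7.69, 10.81, 9.84 and 7.19 FPKM in CRD, against 11.40, 10.26, 11.84, 10.85 and 9.85 FPKM in CON. Per1, the light-responsive period gene, averaged 14.4 ± 2.23 FPKM in CRD and 17.2 ± 1.48 FPKM in CON. The differences were -0.35 for Dbp, -0.26 for Ciart and -0.25 for Per1, each with a limma adjusted p of 1.00.

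The positive limb and the other loop genes were close in both groups. Arntl, encoding BMAL1, had 11.77, 11.05, 10.97, 9.26 and 9.96 FPKM in CRD, against 10.40, 9.82, 9.10, 9.32 and 8.62 FPKM in CON, a difference of 0.15 with a 95% interval of -0.02 to 0.32. The groups overlapped. Clock, Npas2, Per2, Per3, Cry1, Cry2 and Nr1d2 differed by 0.06, -0.00, -0.03, 0.11, 0.06, -0.02 and 0.00, and the widest of their intervals, that of Per3, ran from -0.20 to 0.42. Tef and Hlf, relatives of Dbp, differed by -0.00 and -0.09, and their repressor Nfil3 by 0.06. Bhlhe40 and Bhlhe41, repressors at E-boxes, differed by -0.13 and -0.15. Since the hour of collection was not given, a difference in level and a difference in phase cannot be told apart.

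**Figure D3:**
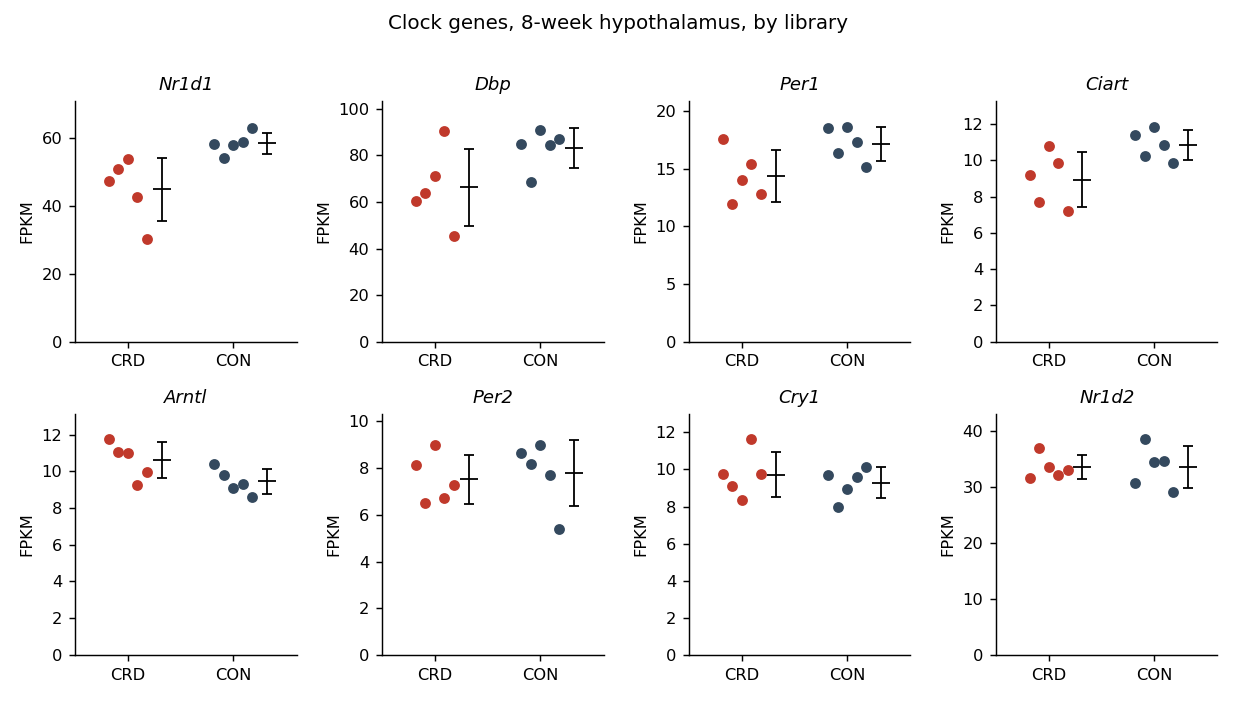
FPKM (vertical axis, from 0) of 8 clock genes in each CRD and CON library, with the mean and SD of 5 libraries beside the points. Nr1d1 is lower in every CRD library than in any CON library, Dbp, Per1 and Ciart overlap with lower CRD means, and Arntl, Per2, Cry1 and Nr1d2 lie at like levels in both groups.

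Of 19 clock list genes with a promoter in the table, 5 held CACGTG, the E-box that CLOCK and BMAL1 bind, a palindrome that reads alike on both strands. By sequence 6 of their 28 promoters held it (21.4%), against 9.35% of the promoters of all genes tested and 7.15% of all promoters. The promoter of Ciart (chr3:95882179-95882478, minus strand, GRCm38.p6) is shown because it held 3 matches, in capitals, which start 116, 58 and 44 bases before the start.
Ciart: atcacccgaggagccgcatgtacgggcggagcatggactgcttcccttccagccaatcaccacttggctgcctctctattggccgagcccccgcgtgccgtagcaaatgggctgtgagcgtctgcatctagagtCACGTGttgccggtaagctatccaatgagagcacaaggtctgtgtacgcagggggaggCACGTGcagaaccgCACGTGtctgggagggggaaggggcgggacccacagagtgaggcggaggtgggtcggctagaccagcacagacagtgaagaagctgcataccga

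Among the peptides and regulators of the suprachiasmatic nucleus, Avp was higher in CRD and Nms lower, neither of them called. Avp encodes vasopressin, made in the clock nucleus and in far larger amounts by the water-balance neurons of the paraventricular and supraoptic nuclei. It had 910.72, 606.27, 736.43, 740.15 and 809.43 FPKM in CRD, against 700.87, 292.15, 680.08, 447.56 and 449.30 FPKM in CON. Only CRD replicate 2 lay below the highest CON libraries, and the difference was 0.62 with a standard error of 0.21 (limma, adjusted p = 1.00). Oxt, the oxytocin gene of neurons lying among those of vasopressin, averaged 464 ± 145 FPKM in CRD and 445 ± 151 FPKM in CON.

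Nms, encoding neuromedin S of the clock nucleus, had 1.90, 0.82, 1.85, 2.13 and 1.44 FPKM in CRD, against 3.91, 2.15, 2.87, 1.45 and 2.82 FPKM in CON. The difference was -0.46 (standard error 0.18, limma adjusted p = 1.00), and CON replicate 4 lay within the CRD range. Vip, the peptide that couples clock neurons, averaged 9.44 ± 1.40 FPKM in CRD and 10.3 ± 3.23 FPKM in CON. Grp averaged 6.27 ± 1.01 FPKM in CRD and 6.39 ± 1.65 FPKM in CON. Prok2, a clock output peptide, and Rgs16, a regulator of G protein signalling there, differed by -0.33 and -0.35, with 95% intervals of -0.70 to 0.04 and -0.74 to 0.04. In all, 3 of 23 tested genes of this list were lower and 1 higher at an unadjusted p under 0.05, against 0.664% and 0.415% of all genes, with a median of -0.02.

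Apart from Avp, the peptides of feeding, arousal and the endocrine axes named here differed by less than the spread between libraries. None of 17 feeding and arousal genes had an unadjusted p under 0.05. Of 18 neuroendocrine hormone and releasing factor genes, 1 was higher in CRD at that threshold, Avp, against 0.415% of all genes, and 0 were lower. Agrp and Npy of the hunger neurons differed by 0.15 and 0.16, Cartpt of the satiety neurons by 0.10, Hcrt (orexin) by -0.24 and Pmch (melanin-concentrating hormone) by -0.28. Hcrt had 254.67, 116.73, 117.45, 225.44 and 130.19 FPKM in CRD, against 211.53, 126.22, 245.66, 164.04 and 216.78 FPKM in CON, so each group held high and low libraries. Crh, Trh, Ghrh, Sst, Gnrh1 and Kiss1, which govern the pituitary axes or their feedback, differed by 0.04, -0.15, -0.10, -0.11, -0.18 and -0.08. Their standard errors were 0.16 to 0.36, wider than the 0.0909 median over all genes. Dio2, which activates thyroid hormone, differed by 0.09, and Dio3, which inactivates it, lay under the expression filter at 0.134 ± 0.0896 FPKM in CRD and 0.174 ± 0.0650 FPKM in CON.

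Pomc, the precursor of melanocortins in the hypothalamus and of corticotropin in the pituitary, had 1737.17, 25.26, 33.53, 87.98 and 42.85 FPKM in CRD, against 72.68, 13.28, 51.45, 24.41 and 53.07 FPKM in CON. CRD replicate 1 stood apart. CRD replicate 4 (87.98 FPKM) also lay above the highest CON library (72.68 FPKM), and the remaining CRD libraries lay within the CON range. The same library had the highest Prl (204.86 FPKM), Gh (126.44 FPKM) and Cga (40.02 FPKM), hormone genes of the anterior pituitary. The pituitary list summed to 186 to 2350 FPKM in CRD and 184 to 316 FPKM in CON, with 10 of 14 members tested. Of these 10, 1 was lower in CRD, and the median difference was 0.38. Prl was between 0.49 and 7.90 FPKM in the other CRD libraries and between 0.28 and 2.62 FPKM in CON. Without CRD replicate 1 the difference of Pomc was 0.20.

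**Figure D4:**
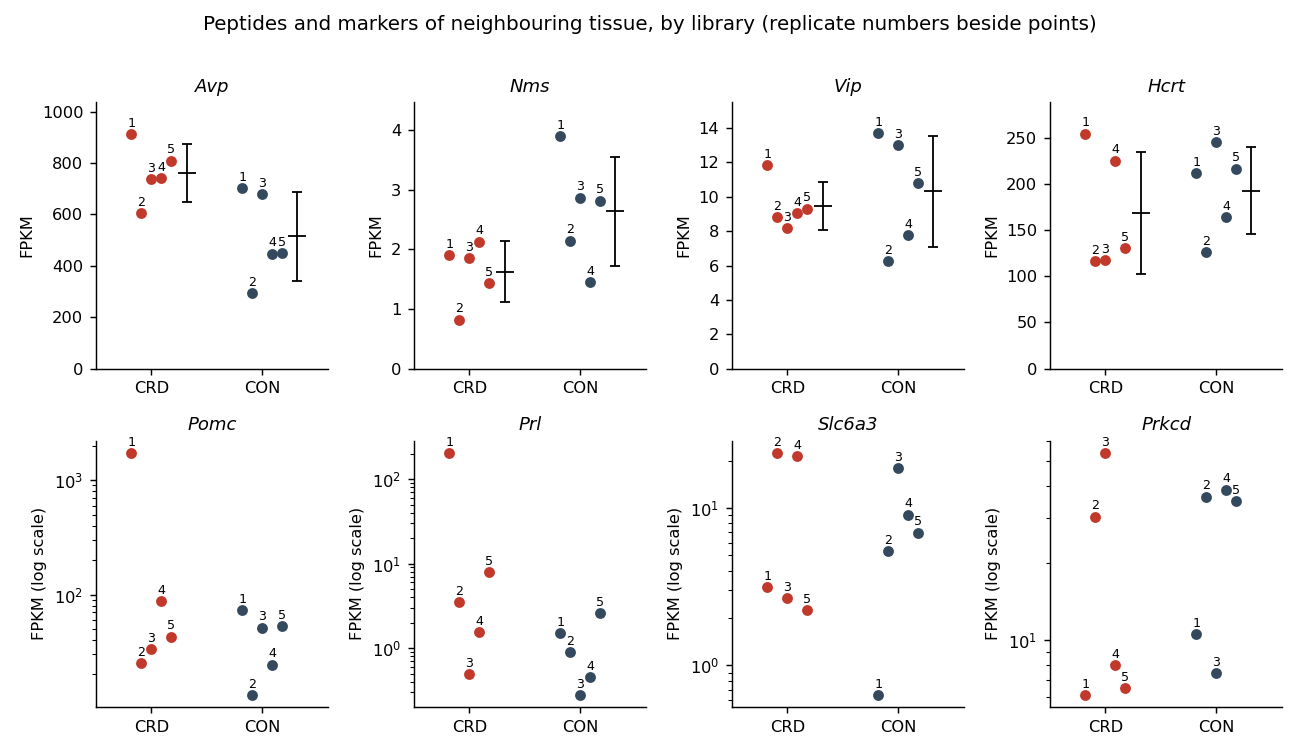
FPKM of 4 peptide genes (upper row, axis from 0, with mean and SD) and of Pomc and 3 markers of neighbouring tissue (lower row, logarithmic axis) in each library, numbered by replicate. Avp is higher in CRD with overlap, CRD replicate 1 alone holds 1737 FPKM of Pomc and 205 FPKM of Prl, and high Slc6a3 (midbrain dopamine neurons) and Prkcd (thalamus) occur in libraries of both groups.

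Glucocorticoid-responsive and immediate early genes had mostly negative differences and other stress lists mostly positive ones, and none was called. Of 18 glucocorticoid-responsive genes 16 were lower in CRD, 2 of them at an unadjusted p under 0.05 (Sult1a1 and Per1, against 0.664% of all genes), with a median of -0.13. Sgk1, a kinase induced by glucocorticoids, had 44.77, 13.82, 26.87, 50.53 and 18.05 FPKM in CRD, against 21.25, 49.94, 66.87, 38.39 and 49.33 FPKM in CON. The libraries of both groups spread over more than 3-fold, and the difference of -0.61 had a limma adjusted p of 1.00. Of 17 immediate early genes, which neurons switch on when active, 15 were lower, 2 of them at an unadjusted p under 0.05 (Arc and Egr3, against the same 0.664%), with a median of -0.16. Arc, a synaptic activity marker, had 6.16, 6.57, 5.95, 5.82 and 6.15 FPKM in CRD, against 7.79, 6.62, 7.46, 7.47 and 7.44 FPKM in CON. The groups did not overlap, at a difference of -0.23. Of 16 heat shock and cold-inducible genes 2 were lower in CRD (median 0.07), and of 17 genes of the unfolded protein and integrated stress response 4 were (median 0.06), none of either list at an unadjusted p under 0.05.

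The glial, vascular and housekeeping lists lay close to the median of all genes. Medians were -0.08 for 14 astrocyte genes, -0.05 for 16 myelin genes, 0.05 for 16 endothelial genes, -0.04 for 20 genes of oxidative phosphorylation and -0.01 for 20 ribosomal protein genes. Emcn, an endothelial sialomucin, was the only endothelial member at an unadjusted p under 0.05, at 3.71 FPKM in CRD and 2.66 FPKM in CON. Cbr2, found in macrophages at the borders of the brain, averaged 2.96 FPKM in CRD and 1.35 FPKM in CON (difference 0.66, limma adjusted p = 1.00), while Mrc1, Cd163, Lyve1, F13a1 and Ms4a7 of the same list lay under the filter. All 3 tested genes of that list were higher in CRD, with a median of 0.20. At an unadjusted p under 0.05 there was 1 of them, against 0.415% of all genes. Cpne8, a calcium-dependent membrane-binding protein gene, was the 1 gene of the 20 named for the smallest p that was higher in CRD, at 36.5 ± 3.13 FPKM in CRD and 29.5 ± 3.45 FPKM in CON.

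The response to CRD at 8 weeks was then set against that at 18 months in 1 fit over 19 hypothalamus libraries. It differed for 7 of 14437 genes at an adjusted p under 0.05 (limma), all of them more negative at 8 weeks (0.0485% of genes tested). Lgals3bp, Ifi27l2a, Rtp4, Bst2 and Irf9 belong to the interferon list, and Ifi27 and Slfn2 are also known to be induced by interferon. At an unadjusted p under 0.05 487 genes (3.37%) were more negative at 8 weeks and 340 more positive. The ages also differed in level over 7 sex-linked genes. Their mean log2(FPKM + 1) per library was 3.51 to 3.84 in CRD and 3.45 to 3.85 in CON at 8 weeks. At 18 months it was 1.82 to 2.08 in CRD and 1.89 to 1.96 in CON. The part of sex was not tested, and age and sex cannot be told apart here.

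For Ifi27l2a CRD minus CON was -1.43 at 8 weeks (standard error 0.29) and 1.91 at 18 months (standard error 0.31), a difference of -3.34 (adjusted p = 0.00108). The 18-month libraries had 24.17, 54.47, 20.29, 44.71 and 34.07 FPKM in CRD, against 11.42, 9.38, 6.50 and 6.20 FPKM in CON. Every 18-month CRD library was above every 18-month CON library, where at 8 weeks every CRD library was below. Ifi27 differed by -2.15 between the ages and Lgals3bp by -2.39 (adjusted p = 0.000429 and 0.00056). Rtp4 differed by -2.69, with -0.81 at 8 weeks and 1.88 at 18 months (adjusted p = 0.0179).

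Slfn2, a Schlafen family gene of immune cells, differed by -1.46, Bst2 by -2.43 and Irf9 by -1.76 (adjusted p = 0.0497 each). Over the interferon response list 5 of 19 tested genes were called, against 0.0485% of all genes. At an unadjusted p under 0.05, 18 were more negative at 8 weeks, against 3.37% of all genes. The list's median difference was -2.14. Here too the list was chosen with earlier results of these data known, so its counts are a description. The same libraries of 8 weeks enter both this test and that of CRD against CON at 8 weeks alone. In 18-month CRD replicate 2 the list summed to 1191 FPKM, against 246 to 418 FPKM in the other 18-month CRD libraries and 131 to 193 FPKM in 18-month CON. The MHC class I list had a median difference of -0.84, and none of its genes was called. At an unadjusted p under 0.05, 9 of its 12 genes were more negative at 8 weeks, against the same 3.37%.

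The 3 calls of Ifi27, Ifi27l2a and Lgals3bp were made in all 6 alternative settings and in all 19 fits that left out a library. Rtp4 was called in 4 of 6 settings and 15 of 19 fits, and Bst2, Irf9 and Slfn2 in 2 of 6 settings and 4, 3 and 7 of 19 fits. Without 18-month CRD replicate 2 there were 21 calls, and without 18-month CRD replicate 1 there were 16. Leaving out 18-month CON replicate 2, 3 or 4 or 8-week CRD replicate 2 left 3 calls, and leaving out 18-month CRD replicate 4, 8-week CON replicate 3, 4 or 5 or 8-week CRD replicate 3 or 5 left 4. Clock genes gave no called difference between the ages. Nr1d1 was at -0.40 at 8 weeks and -0.44 at 18 months, a difference of 0.05 with a 95% interval of -0.32 to 0.42. Dbp was at -0.35 at 8 weeks and -0.71 at 18 months, a difference of 0.36 with a 95% interval of -0.04 to 0.76.

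**Figure D5:**
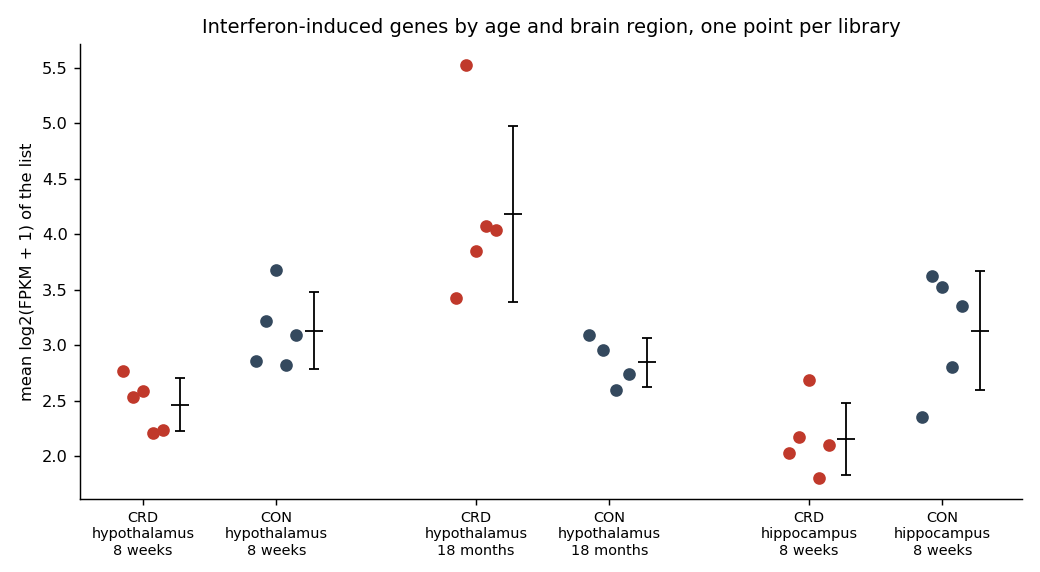
Mean log2(FPKM + 1) over the 18 tested interferon genes (vertical axis) in each library of the hypothalamus at 8 weeks, the hypothalamus at 18 months and the hippocampus at 8 weeks, CRD left of CON, with the mean and SD of each group. At 8 weeks the hypothalamus groups do not overlap and those of the hippocampus do, with lower CRD values in both, while at 18 months every CRD library is above CON and 1 reaches 5.53.

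Last, the 8-week response was compared between hypothalamus and hippocampus in 1 fit over 20 libraries. The difference was called for 0 of 14526 genes (0%), with a smallest adjusted p of 0.429 (limma), while 1645 genes had an unadjusted p under 0.05 (11.3%). Of these 1236 were more positive and 409 more negative in the hypothalamus, and under median-of-ratios scaling the split was 828 and 851. None of 19 interferon genes was among them. Their median difference was 0.31. The list's own medians of CRD minus CON were -0.67 in the hypothalamus and -0.86 in the hippocampus. Lgals3bp, for example, was at -1.08 in the hypothalamus and -1.39 in the hippocampus, a difference of 0.31 with a 95% interval of -0.40 to 1.03.

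Ifi27l2a was at -1.43 in the hypothalamus and -2.06 in the hippocampus, and its interval of the difference ran from -0.63 to 1.88. These intervals are wide, so like responses in both regions were not shown. The smallest p belonged to Lemd3, Col25a1, Grin2a, Zfp141 and Pfas, each lower in CRD hippocampus and near or above 0 in the hypothalamus, with differences of 0.39, 0.76, 0.95, 0.53 and 0.47. Of 18 glycolysis and glucose transport genes, 10 had an unadjusted p under 0.05, against 11.3% of all genes, and the median difference was -0.25. Hippocampus CRD replicate 2 stood apart, with 26756 FPKM summed over the list of ribosomal proteins (10737 to 12515 FPKM in the other CRD libraries, 11422 to 11927 FPKM in CON) and 19671 FPKM over oxidative phosphorylation. Without it 14 glycolysis genes had an unadjusted p under 0.05 (median -0.29), and the median of the ribosomal protein list was -0.01, against -0.22 with it, and that of oxidative phosphorylation -0.10, against -0.32. The hippocampus libraries were uneven in choroid plexus transcripts, whose list summed to 111 and 155 FPKM in CRD replicates 4 and 2, 7494 to 13606 FPKM in the other CRD libraries and 3466 to 10813 FPKM in CON. The part of this in the differences between the regions was not tested.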

How the data were processed

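Messenger RNA was purified with oligo(dT) beads and sequenced, per the labels' protocols. The authors deposited 1 table of FPKM per gene and library, rounded to 2 decimals, which was used as deposited. The submitters' processing notes name HISAT2, Bowtie2, RSEM, DESeq2 and GRCm38, and the annotation, settings and strandedness are not given in the sources used here. Genes are those of the table, and 20517 of 20673 matched RefSeq GRCm38.p6 by gene ID.

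FPKM were taken as log2(FPKM + 1), genes averaging at least 0.5 FPKM over the libraries of a fit were kept, and group means were compared with limma 3.58.1 (R 4.3.3, intensity trend, Benjamini-Hochberg adjustment over all genes of the fit). The 8-week comparison used its 10 libraries only, and the differences between ages and regions were interaction terms over 19 and 20 libraries. The scripts were tested on simulated data. Intervals are 95%. Same-numbered libraries were not treated as pairs. Near-identical relatives (Ifit3 and Ifit3b, the Oas1 and H2 genes) may share reads. The named genes were the 20 with the smallest p at 1 FPKM or more in the higher group, predicted genes and clones (Gm, Rik) left out, listed clock, peptide and interferon genes, up to 4 genes of each list with at least 30% of members at an unadjusted p under 0.05, and the leading or called genes of each difference. The members, lists and rules were chosen with earlier results of these data known. Alternatives were another pseudocount, filter and scaling, no trend, a fit over 4 groups, a replicate block and leaving out each library. Values of 1 member of the interferon list are not reported here.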

Additional observations from a re-analysis of the deposited data

Results flagged for a closer look

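Within groups of 5 libraries, 10 of 118 pairs of a named gene and a group (8.47%) held a library set far from the others, where chance gives about 1 in 20. In CRD they were Pomc in replicate 1 (1737.17 FPKM, others 25.26 to 87.98), Lgals3bp in replicate 1 (19.56 FPKM, others 13.44 to 14.67) and C1qa in replicate 2 (67.20 FPKM, others 56.41 to 58.90). In CON replicate 3 Oas1a was high (2.67 FPKM, others 1.29 to 1.69), as was Irf7 (6.74 FPKM, others 2.97 to 3.85), and Rgs16 was low (12.82 FPKM, others 18.71 to 20.32). In CON replicate 1 Trh (113.71 FPKM, others 72.90 to 82.34) and Sst (539.66 FPKM, others 321.39 to 374.61) were high and Tef was low (70.97 FPKM, others 77.28 to 79.05). Dbp was low in CON replicate 2 (68.64 FPKM, others 84.68 to 90.91).

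The response to CRD differed between 8 weeks and 18 months, by the interaction term of limma, for Ifi27 (-2.15), Lgals3bp (-2.39), Ifi27l2a (-3.34), Rtp4 (-2.69), Slfn2 (-1.46), Bst2 (-2.43) and Irf9 (-1.76), each negative at 8 weeks and positive at 18 months.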

How the results depend on the processing

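Between CRD and CON at 8 weeks 0 genes were called in all 8 other settings, and 0 to 2 when a library was left out, the 2 being Lgals3bp and Ifi27 without CON replicate 1. Interferon members lower at an unadjusted p under 0.05 numbered 10 to 17 over these settings and 12 to 16 with a library left out, and 17 without CRD replicate 1 and CON replicate 5 together, which was chosen after seeing the data. Their median ran from -0.94 to -0.62 over the settings. Genes at an unadjusted p under 0.05 numbered 132 to 346, the highest with no filter. The difference between ages was called for 14 genes with a pseudocount of 0.1, 3 with no filter, 4 with median-of-ratios scaling, 4 with no intensity trend and 3 to 21 with a library left out, and the cause was not tested. The difference between regions was called for 0 genes throughout. Same-numbered CRD and CON libraries at 8 weeks did not deviate together (r over 0.1 in 1 of 5 pairs), and 1 of 5 correlated best with its own number. Hypothalamus and hippocampus libraries of one number had r over 0.1 in 3 of 5 CRD and 4 of 5 CON pairs (-0.18 to 0.40), so the region fit may treat related libraries as independent. With the replicate block the calls were 0, 4 for the ages and 0 for the regions, where 2069 genes and 4 interferon members had an unadjusted p under 0.05, against 1645 and 0 without it. Absolute depth is unknown, which limits the statements on genes near 0 FPKM.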

Other observations

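Of the genes with every CRD library above every CON library, 10 in number, none belonged to a list. They were Gm42078 (7.26 to 9.59 FPKM in CRD, 4.58 to 6.75 FPKM in CON), Zbtb1, Smco4, Mmel1, A130010J15Rik, Trpc6, Ube2t, Mrrf, Jkamp and Abhd10, with differences of 0.48, 0.22, 0.22, 0.23, 0.20, 0.31, 0.25, 0.11, 0.08 and 0.08. Trpc6 encodes a cation channel and Mmel1 a peptidase related to neprilysin. They were chosen after their values were seen, and each had a limma adjusted p of 1.00.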
